A study of Mus musculus with 2 samples.

Results

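The genes described here encode subunits of the transcription factor NF-kB and proteins that hold it in check. They were chosen by name, as every probe set whose only gene symbol in the platform annotation was Nfkb1, Nfkb2, Rela, Relb, Nfkbia, Nfkbib, Nfkbie, Nfkbiz, Tnip1 or Tnfaip3. Of these 10 genes, 9 had a probe set, 14 probe sets in all, among the 8721 named genes of the table, and Nfkb1 was not analysed here. RNA came from epithelial cells of the colon, taken from mice of the inbred strain C57BL/6 at an age of 7 weeks. They were kept with PBS, a buffered salt solution used as the control, or with MIF, taken here to be the cytokine macrophage migration inhibitory factor. Each incubation gave 1 Affymetrix array, so there is no spread between replicates, and no test of any difference was possible. The question the pair of arrays addresses is which transcripts differ between cells given MIF and cells given PBS. The sources used here do not give the dose, the duration, the number of animals or the method of isolation.

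NF-kB is a family of dimers built from Rel proteins, among them RELA, RELB and the processed products of Nfkb1 and Nfkb2. In resting cells IkB proteins, encoded by Nfkbia, Nfkbib and Nfkbie, keep the dimers in the cytoplasm. A signal from a cytokine or Toll-like receptor activates the IkB kinase complex, which marks IkB for destruction and frees the dimer to enter the nucleus. Several of its targets are its own inhibitors, so the pathway limits itself. In the gut epithelium this pathway is known for its part in barrier maintenance, in survival and in the response to microbes.

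NF-kB is known to act on several of these genes through sites near their starts, and the sequences there are shown for that reason. RefSeq promoters of mouse assembly GRCm38.p6, each running from 250 bases before a gene's start to 50 after it, were matched by symbol for 7 of the 10 genes. They are Nfkbia, Nfkbib, Nfkbie, Nfkb2, Rela, Tnip1 and Tnfaip3. Both strands were searched for a kB consensus of 10 bases, a form of the sites that NF-kB dimers are known to bind. It was GGGRNWYYCC, where R is A or G, W is A or T, Y is C or T and N is any base. Sites that depart from this pattern were not counted. Of the 7 genes, 5 held it in at least 1 promoter, namely Nfkbia, Nfkbie, Nfkb2, Tnip1 and Tnfaip3, and Rela and Nfkbib did not. Counted by gene, 5.14% of the 27025 genes with a promoter held it. Counted by promoter, 7 of the 10 promoters of these genes held it, against 4.51% of all 32851. A match is a description of the letters and not evidence of binding. The promoters of Tnip1, the gene with the largest difference below, and of Nfkbia, the classical feedback inhibitor, are given whole. For Nfkbie and Tnfaip3 a stretch around 1 match is given, and for Nfkb2 a stretch around 3 overlapping matches. All are 5′ to 3′ on the gene's own strand, with capitals marking matches to the consensus on either strand. The Nfkb2 stretch ends within a further match, from 11 to 2 bases before the start, whose first bases are left in lower case.
Tnip1 (chr11:54962891-54963190, minus strand): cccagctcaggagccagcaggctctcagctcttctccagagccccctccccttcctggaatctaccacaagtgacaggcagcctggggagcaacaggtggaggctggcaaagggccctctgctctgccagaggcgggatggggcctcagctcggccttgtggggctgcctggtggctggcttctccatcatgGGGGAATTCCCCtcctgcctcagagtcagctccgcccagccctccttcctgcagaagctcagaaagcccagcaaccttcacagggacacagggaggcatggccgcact
Nfkbia (chr12:55492598-55492897, minus strand): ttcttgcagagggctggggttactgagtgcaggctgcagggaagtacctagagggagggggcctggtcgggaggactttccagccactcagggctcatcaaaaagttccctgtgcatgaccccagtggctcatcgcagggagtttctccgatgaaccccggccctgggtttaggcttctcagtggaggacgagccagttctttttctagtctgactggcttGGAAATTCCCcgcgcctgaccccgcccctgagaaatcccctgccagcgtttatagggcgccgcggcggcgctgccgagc
Nfkbie (chr17:45555574-45555623, plus strand): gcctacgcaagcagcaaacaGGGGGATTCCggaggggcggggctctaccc
Nfkb2 (chr19:46304678-46304728, plus strand): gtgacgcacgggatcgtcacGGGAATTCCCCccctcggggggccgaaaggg
Tnfaip3 (chr10:19015393-19015442, minus strand): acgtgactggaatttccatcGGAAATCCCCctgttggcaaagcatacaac
The capitals of Tnip1 cover 12 bases, from 58 to 47 bases before the start, where 4 overlapping matches on both strands make 1 palindromic stretch. Those of Nfkbia lie from 29 to 20 bases before the start, where the strand opposite to the gene reads GGGAATTTCC.

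Epithelial identity was checked first. All 13 colon epithelial markers in the table, of 14 listed, lay above a signal floor of 232 on both arrays. This floor is the 40th percentile of all signals other than controls, and lower values were raised to it. Epcam, an adhesion protein of epithelia, had signals of 8889 with PBS and 8830 with MIF. Ptprc, the pan-leukocyte marker CD45, lay under the floor on both. The column medians were 337 for PBS and 346 for MIF, a log2 difference of 0.04, and the columns were used as deposited. Of the 8721 genes, 5837 were above the floor on at least 1 array and are called assessed. Their median log2 difference, MIF minus PBS, was -0.01.

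Among the NF-kB genes 1 stood below the rest. Tnip1, whose product binds ubiquitin chains and restrains NF-kB signalling, had a lower signal on the MIF array by 1.45-fold. The other 5 assessed genes, Nfkbia, Nfkbib, Nfkbiz, Rela and Relb, lay within a log2 difference of 0.32 of equality. This value, a signal ratio of 5 to 4, is the threshold used throughout to count differences, since no test exists for 1 array per group. Past it, 1 of the 6 assessed genes was lower, against 3.53% of all assessed genes, and 0 were higher, against 4.56%. Their median log2 difference was -0.06, and 5 of the 6 were below 0, against 53.3% of all assessed genes. The sign of Nfkbia and Nfkbib turned with the scaling, and that of Nfkbiz when a trend with intensity was subtracted. With 6 genes and 1 array a side, neither the count nor the median can be called particular to them. In RNA from a whole cell preparation, fewer cells of a type and less RNA per cell cannot be told apart.

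**Figure D1:**
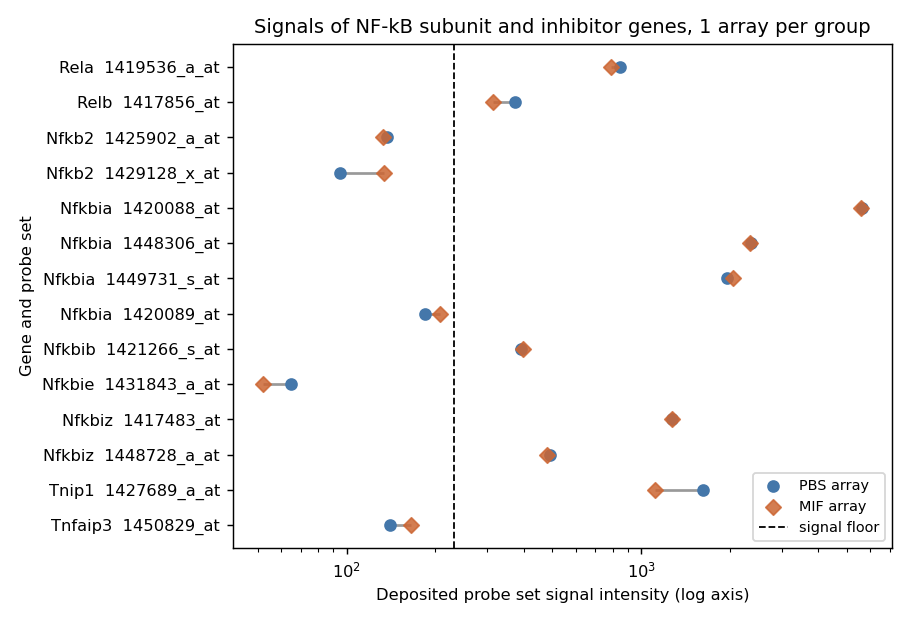
Deposited signal of each of the 14 probe sets on the PBS array (circles) and the MIF array (diamonds), on a log axis, with 1 array per group and the signal floor of 232 as a dashed line. The line joining the pair is long for Tnip1, from 1617 to 1115, and the symbols nearly coincide for Nfkbia, Nfkbib and Nfkbiz, while 5 probe sets lie under the floor on both arrays.

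Of the DNA-binding subunits, Rela encodes the main activating partner of the canonical dimer. Its signal was 850 with PBS and 789 with MIF, a log2 difference of -0.11. The MIF value was the lower. When the 5545 genes above the floor on both arrays were split into 4 groups of nearly equal size by mean signal, 48.6% of the genes in the group of Rela were at least as far from 0. Relb encodes the subunit of the non-canonical dimer, which pairs with the product of Nfkb2. Its signal was 372 with PBS and 314 with MIF, 1.18-fold lower, or -0.24 on the log2 scale. It had the second largest difference of the 6 genes, and 7.54% of all assessed genes had a lower value. Relb was in the dimmest of these 4 groups, where the SD of differences across genes was 0.20 and 19.97% of genes were at least as far from 0. Nfkb2, the precursor of RelB's partner, lay under the floor on both arrays on both of its probe sets. Signals there were 137 for PBS and 133 for MIF on the first, and 95.0 and 134 on the second, so no difference is given.

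The 2 assessed classical IkB genes, Nfkbia and Nfkbib, had nearly equal signals. Nfkbia, which encodes the IkB that is degraded and resynthesised fastest, was measured by 4 probe sets, 3 of them above the floor. The brightest read 5642 with PBS and 5558 with MIF. A second read 2359 and 2340, and the next 1964 and 2051. Log2 differences on these were -0.02, -0.01 and 0.06, with an SD between probe sets of 0.05, so no consistent direction appeared. The remaining probe set lay under the floor, at 185 and 207. Nfkbib, whose product is degraded more slowly, read 390 with PBS and 398 with MIF, a log2 difference of 0.03. Nfkbie, the third of these inhibitors, was under the floor at 64.6 and 51.9 and was not assessed. Nfkbiz encodes a nuclear IkB that is induced by microbial signals and interleukins and helps to switch on secondary response genes. Its first probe set read 1277 and 1273, and its second 492 and 481, giving log2 differences of -0.0044 and -0.03. On the probe sets above the floor, the readings of Nfkbia and of Nfkbiz differed among themselves by less than the SD of 0.13 between probe sets of the same gene over 1800 genes.

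Tnip1 and Tnfaip3 encode inhibitors that act on ubiquitin chains. Tnip1 read 1617 with PBS and 1115 with MIF, a log2 difference of -0.54. Only 34 of the 5837 assessed genes had a lower value. In its group of genes by mean signal, the SD of differences was 0.18, and 0.938% were as far from 0 in either direction. This is a place among genes on 1 pair of arrays and does not measure how much separate preparations of cells vary. A single probe set measured Tnip1, so no second reading within the arrays was available. Its name ends in _a_at, which marks probes shared by several transcripts of a gene. At 1.5-fold, which 0.463% of assessed genes passed on the lower side and 0.634% on the higher, 0 of the 6 genes qualified, Tnip1 included. Tnfaip3 encodes the ubiquitin-editing enzyme to which the TNIP1 protein binds. It lay under the floor on both arrays, at 140 for PBS and 165 for MIF, and gives no value to set beside that of its partner.

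**Figure D2:**
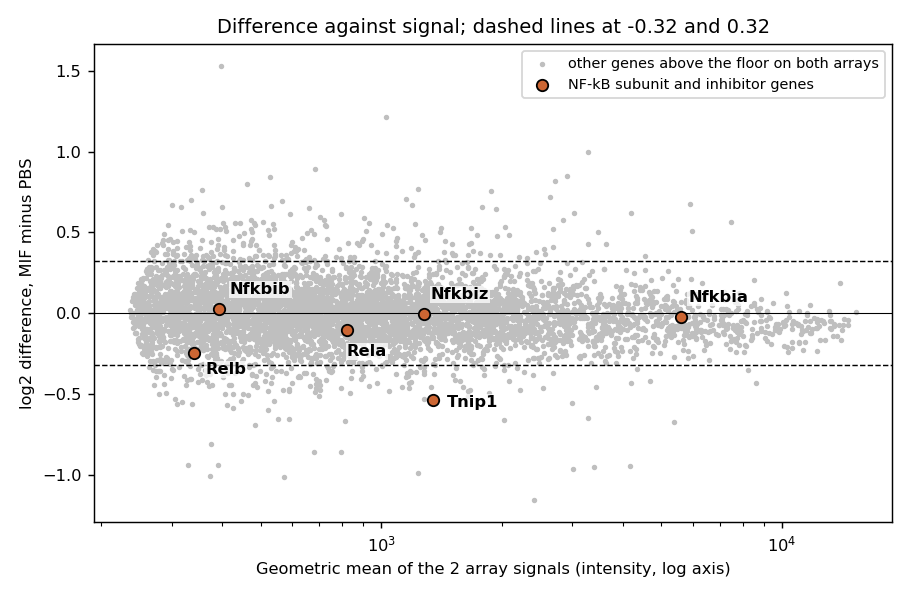
Log2 difference, MIF minus PBS, of 5545 genes above the floor on both arrays (grey) against the geometric mean of their signals on a log axis, with the 6 assessed NF-kB subunit and inhibitor genes in orange. Tnip1 at -0.54 lies outside the dashed lines at -0.32 and 0.32, and Relb, Rela, Nfkbia, Nfkbiz and Nfkbib lie inside them.

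Signals of some other cell types differed between the arrays. Of 4 intraepithelial lymphocyte markers in the table, 2 were above the floor, the granule proteases Gzma at 813 and 403 and Gzmb at 541 and 282 on the PBS and MIF arrays. With values under the floor raised to it, the 4 markers summed to 1818 for PBS and 1149 for MIF, and to 1464 and 769 as deposited. Of 8 fibroblast markers, 1, Dcn, was above the floor on both arrays and 5 were under it on both. Dcn read 235 with PBS, just over the floor, and 678 with MIF. The 8 fibroblast markers summed to 1856 and 2644 with the floor, and to 803 and 1932 as deposited. The 11 leukocyte markers in the table summed to 3634 and 3635 with the floor, and to 2167 and 2114 as deposited. Of these 11, 9 were under the floor on both arrays and Cd14 alone was above it on both. The sums with the floor were thus largely set by the floor and by Cd14. Endothelial markers, 3 in the table, and the smooth muscle marker Acta2 were under the floor on both. Gzma and Gzmb were thus lower with MIF, as were Tnip1 and Relb, and Dcn was higher. The part of these other cell types in the values of Tnip1 and Relb was not tested.

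The rest of the pathway was described through 5 lists with 121 symbols, of which 88 were in the table and 55 were assessed. Past the threshold of 0.32, 3 of the 55 were lower, 5.45%, and 2 were higher, 3.64%, close to the 3.53% and 4.56% of all assessed genes. The median over the 55 was -0.03. The 5 genes past the threshold became 21 of 88 without a floor, where 19.8% of all genes passed, and 2 of 41 under a floor at the 60th percentile, where 5.94% did.

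Other NF-kB and IkB family genes and their direct regulators had 6 assessed members of 9 in the table, with a median of -0.08. Past the threshold, 2 of the 6 were lower, against 3.53% of all assessed genes, and 0 were higher, against 4.56%. With 6 genes and 1 array a side, this count cannot be called particular to the list. Nkiras2, a small GTPase of the kB-Ras type that binds IkB proteins and slows their degradation, read 1320 with PBS and 1002 with MIF, a log2 difference of -0.40. Pdlim2, whose product sends nuclear RELA to degradation, read 489 and 379, a difference of -0.37. Each of these rests on 1 probe set. Nkiras1, the other kB-Ras gene, read 249 and 260, a difference of 0.07. Bcl3, a nuclear IkB, was nearly equal at 686 and 675.

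IkB kinases and their activators had 13 assessed members of 19 in the table and a median of 0.02, which turned to -0.02 with median centring. Past the threshold, 0 were lower, against 3.53% of all assessed genes, and 1 was higher, against 4.56%. That gene, Tank, encodes an adaptor of TRAF proteins and of the kinase TBK1. It read 389 with PBS and 526 with MIF, 1.35-fold higher, on its only probe set above the floor. Ikbke, a kinase related to TBK1, read 440 and 359, a log2 difference of -0.29, inside the threshold. Ikbkb, the main catalytic subunit of the complex, read 739 and 745. Genes of ubiquitin handling and IkB turnover had 16 assessed members of 19, with a median of -0.05. On their brightest probe sets all 16 lay within the threshold, past which 8.09% of all assessed genes lay. The lowest was Sharpin, a subunit of the linear ubiquitin ligase, at -0.28, and its second probe set gave 0.11. Second probe sets of Rnf11 and Tax1bp1, described at the end, lay past the threshold on the higher side. Birc3, a ubiquitin ligase of the receptor complex and itself a known target, read 928 and 949.

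Receptors upstream had 8 assessed members of 14 in the table and a median of -0.01, which turned to 0.06 under a floor at the 20th percentile. Past the threshold, 0 were lower, against 3.53% of all assessed genes, and 1 was higher, against 4.56%. Tnfrsf11a, the receptor RANK, read 306 with PBS and 405 with MIF, a log2 difference of 0.41, and a second probe set gave 0.17. Tnfrsf1a, the main receptor of TNF, read 850 and 843. Known NF-kB targets had 12 assessed genes of 27 in the table and a median of -0.04. Past the threshold, 1 was lower, against 3.53% of all assessed genes, and 0 were higher, against 4.56%. The lower gene was Saa3, an acute phase protein, at 1315 with PBS and 960 with MIF, a log2 difference of -0.45. These are from its only probe set above the floor. A second probe set of Ccnd1, described at the end, also lay past the threshold on the lower side. Of the 12, 10 were below 0, several by less than 0.05, against 53.3% of all assessed genes. Differences also varied with signal, with a median of -0.04 in the brightest of the 4 groups by mean signal and 0.0084 in the dimmest. Pigr, Fth1, Ccnd1, Irf1, Sod2 and Xiap were in the brightest group. With a trend on intensity subtracted, the median of the targets was -0.03. The part of signal level in the 10 was not tested. The early target Ier3 read 582 and 591, and Sod2, the mitochondrial superoxide dismutase, 1905 and 1892. Cytokine, chemokine and adhesion genes of this list, among them Tnf, Il1b, Il6, Cxcl1, Cxcl2, Cxcl10 and Icam1, were under the floor on both arrays where the table held them, and gave no difference here.

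**Figure D3:**
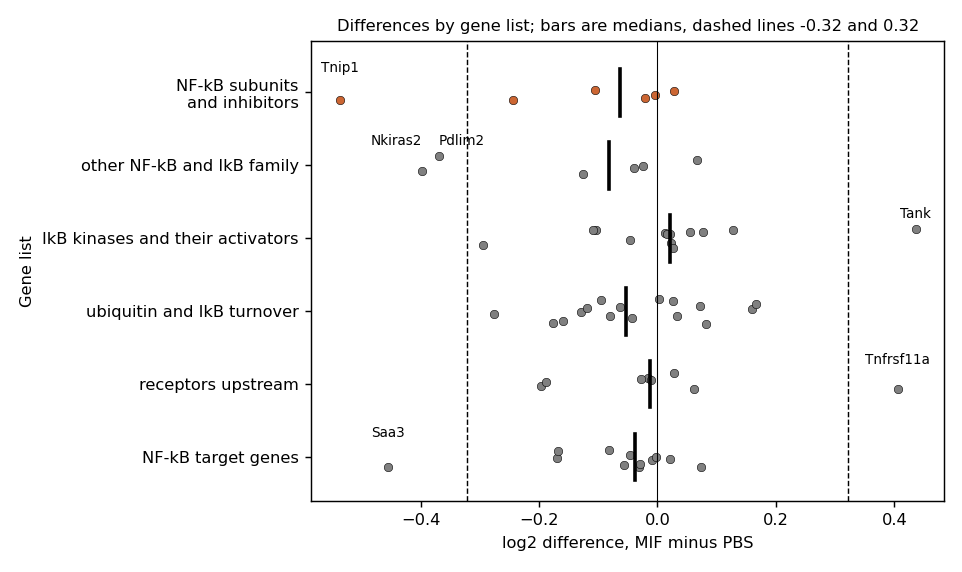
Log2 difference, MIF minus PBS, of each assessed gene (points) in the NF-kB subunit and inhibitor genes (orange) and in 5 lists of pathway genes (grey), with list medians as bars and dashed lines at -0.32 and 0.32. Medians run from -0.08 to 0.02, and only Tnip1, Nkiras2, Pdlim2, Saa3, Tank and Tnfrsf11a lie outside the dashed lines.

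The promoter search was extended to every assessed gene with a RefSeq promoter. Of 4824 such genes, 296 held the kB consensus, and their median log2 difference was -0.0067, against -0.01 for the 4528 genes that did not. Past the threshold of 0.32, 15 of the 296 were lower, 5.07%, and 13 were higher, 4.39%. Of the 4528, 3.42% were lower and 4.31% higher. Tnip1 and Nfkbia, whose promoters are printed above, are both among the 296, at -0.54 and -0.02.

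Other scalings and subtraction of a trend with intensity moved these values by less than the SD of 0.13 between probe sets of a gene. A change of floor cannot move a gene that stays above it, and averaging probe sets could bear on Nfkbia and Nfkbiz alone. Over all settings that gave a value, Tnip1 ranged from -0.57 to -0.53, Relb from -0.29 to -0.24 and Rela from -0.14 to -0.11. Nfkbia ranged from -0.06 to 0.03, Nfkbiz from -0.04 to 0.0021 and Nfkbib from -0.0099 to 0.03, so the sign of these 3 genes depended on the setting. Without probe sets whose names end in _x_at, _s_at or _a_at, Tnip1, Rela and Nfkbib had no value.

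**Figure D4:**
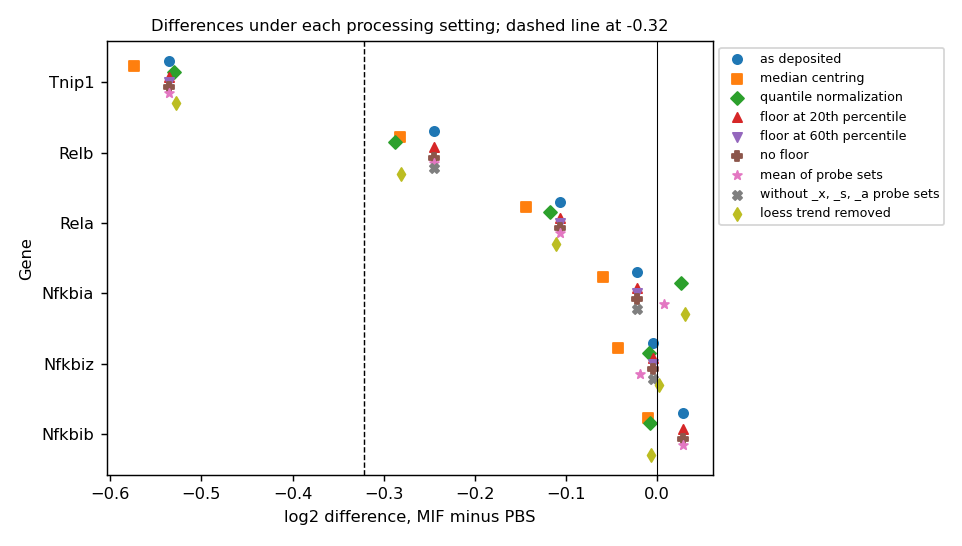
Log2 difference, MIF minus PBS, of the 6 assessed NF-kB subunit and inhibitor genes under each processing setting (symbols), with a dashed line at -0.32. Tnip1 stays between -0.57 and -0.53, left of the line, in every setting that gave it a value, whereas Nfkbia, Nfkbiz and Nfkbib lie on both sides of 0. A change of floor or the averaging of probe sets could not move Tnip1.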

How the data were processed

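The deposited table holds the authors' processed signal intensity of 15340 probe sets on 2 arrays, on a linear scale as read from the values. Trizol extraction and biotin labelling by the Affymetrix protocol are stated per the labels' protocols. The sources used here do not give the summarisation, background correction or scaling. Leaving out 61 controls, 14049 probe sets had 1 gene symbol in the GEO platform annotation, 490 had several and 740 had none, and only the first kind was named. The gene table of GRCm38.p6 gave current symbols for 14034, by Entrez ID.

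Differences are log2 signal, MIF minus PBS, of a gene's brightest probe set by mean log2 signal. Genes under the floor on both arrays were not assessed. A gene under it on 1 array gives a bound (150 for PBS, 142 for MIF). The number of arrays limits the precision.

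The genes, lists and thresholds were chosen with earlier results of these data known. All probe sets of the 10 genes are reported. From each list, up to 3 genes in each direction at least 1.2-fold different were named. Bcl3, Nkiras1, Ikbkb, Birc3, Tnfrsf1a, Ier3, Sod2, Epcam, Ptprc, Cd14, Dcn, Gzma, Gzmb, Acta2, the genes listed as under the floor and those of the closing section were named after their values were seen. Alternatives were median centring, quantile normalization, floors at the 20th and 60th percentile or none, averaged probe sets, no _x_at, _s_at or _a_at probe sets, thresholds of 1.2-fold and 1.5-fold, and subtraction of a loess curve (span 0.3) of difference on intensity. The steps were tested on simulated data. Software was Python 3.11.15, pandas 2.3.3, numpy 2.4.6, matplotlib 3.10.9 and statsmodels 0.14.6.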

Additional observations from a re-analysis of the deposited data

How the results depend on the processing

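A single array per group is the main limit, and every value here may differ in another cell preparation. The count of NF-kB genes lower by more than 0.32 on the log2 scale was 1 in each setting except 2. It was 0 without _x_at, _s_at and _a_at probe sets, where Tnip1 has none left and 3 genes were assessed, all 3 within this threshold, and 0 at 1.5-fold. Changes of floor and averaging of probe sets could not move Tnip1, so its place in those settings was fixed in advance. The number within the threshold was 5 of 6, against 3 of 4 with the floor at the 60th percentile and 8 of 9 with no floor, as fewer or more genes were assessed. Over the 5 pathway lists, 5 genes were past the threshold in either direction. These were 9.09% of 55, against 8.09% of all assessed genes. The count became 14 of 74 under a floor at the 20th percentile (11.8% of all genes), 2 of 41 at the 60th (5.94%), 21 of 88 with no floor (19.8%), 3 of 42 without the named probe set types (8.11%) and 0 of 55 at 1.5-fold (1.10%). No paired analysis was possible because each group has 1 array and no test was made.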

Other observations

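Of 6 genes of ubiquitin handling and IkB turnover with more than 1 probe set above the floor, 3 had probe sets that differed by over 0.32 on the log2 scale, and the spread over the 6 ran from 0.05 to 0.42. The same share over all genes with several probe sets was not computed, so this count cannot be called particular to these genes. Sharpin, described above, was among the 3. Rnf11, a subunit of the ubiquitin-editing complex built around the Tnfaip3 product, read 1199 with PBS and 1261 with MIF on its brightest probe set, a log2 difference of 0.07. Its second probe set read 737 and 1023, a difference of 0.47. Tax1bp1, the adaptor that brings the complex to its substrates, read 5710 and 5462 on the brightest, a difference of -0.06, and 808 and 1034 on the second, a difference of 0.36. The gap was 0.40 for Rnf11 and 0.42 for Tax1bp1, and both genes were named after their values were seen. The brighter probe set alone would place both within a log2 difference of 0.32, and the dimmer alone would place both past this on the higher side.

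Among NF-kB targets, Ccnd1, which encodes the G1 regulator cyclin D1, differed between probe sets towards the lower side. Its brightest probe set read 2603 and 2551, a difference of -0.03, while the other 2 gave -0.35 and -0.28. Gadd45b, a stress-induced gene, gave 0.07 on a probe set reading 425 and 448, and -0.28 on another reading 439 and 363. Xiap, an inhibitor of caspases, gave -0.0025 and 0.30.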
